A study of Mus musculus with 9 samples.

Results

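A module of 48 protein-coding mouse genes was read in neutrophil libraries that had been made after co-culture with cells named PyMT-M. Genes entered the module by their mean level in CPM (counts scaled to the library total, per 1e6 counts) over the 3 libraries of each group. A gene had to average under 1 CPM in neutrophils kept alone, at least 20 CPM with PyMT-M cells, and at least 10 times its mean with PyMT-N cells. Of 54532 gene identifiers in the table, 21995 were annotated as protein-coding, and 57 of those met the 3 limits. Symbols for collagens, integrins, laminins, matrix metalloproteinases, serpins and a few other genes were left out by the rule, which removed 9 (Bcat1, Col3a1, Col5a1, Col6a1, Col6a2, Col6a3, Mmp2, Serpinb9b and Serpinf1). These levels chose the members, so every difference between groups given below for a member is a description with no test.

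Bone marrow neutrophils of wild type mice (C57/B6) were measured in 3 groups of 3 libraries. The first group had spent 12 h in a DMEM medium holding 0.5% FBS together with PyMT-M cells and was then sorted away from them. The second had spent the same time in the same medium with PyMT-N cells and was also sorted, and the third had been kept alone for 12 h with 0.5% FBS. PyMT is the polyoma middle T antigen, an oncogene behind a common mouse model of mammary carcinoma. The sources used here do not explain the letters N and M, and libraries of the PyMT cells by themselves were not analysed here. The labels call the libraries of a group biological replicates and give same-numbered libraries of the 3 groups a number in common, without saying whether it marks an animal or a culture, so part of the spread between libraries may be technical.

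Neutrophils are short-lived granule-bearing white cells that leave the bone marrow with most of their proteins already made. Genes that the module holds are known from other tissues. A lysyl oxidase, collagen chaperones and a platelet-derived growth factor receptor work in mesenchymal cells. Homeobox and transposon-control genes work in the testis, placenta and early embryo. Many germ line genes of this kind are kept silent in adult body cells by methylation of CpG-rich promoters and come on in some tumour lines.

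Promoters were available from RefSeq (GRCm38.p6, 250 bases before to 50 bases after a start site) for 27 of the 48 members, giving 36 promoters. The 3 below belong to an abundant gene of unknown role on chromosome X, to a placental homeobox gene and to a germ line gene. They are shown because each carries the AP-1 word TGANTCA, printed in capitals, and the first 2 also carry the E-box word CACGTG, likewise in capitals. The Gm364 promoter lies at chrX:57408899-57409198 on the plus strand, the Esx1 promoter at chrX:137120277-137120576 on the minus strand and the Tex19.1 promoter at chr11:121145893-121146192 on the plus strand.
Gm364: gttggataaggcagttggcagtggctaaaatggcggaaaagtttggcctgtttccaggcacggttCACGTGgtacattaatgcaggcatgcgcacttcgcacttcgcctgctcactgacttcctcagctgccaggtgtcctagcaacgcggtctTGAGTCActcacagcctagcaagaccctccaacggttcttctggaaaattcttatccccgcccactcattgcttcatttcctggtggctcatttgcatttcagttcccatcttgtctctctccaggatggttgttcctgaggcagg
Esx1: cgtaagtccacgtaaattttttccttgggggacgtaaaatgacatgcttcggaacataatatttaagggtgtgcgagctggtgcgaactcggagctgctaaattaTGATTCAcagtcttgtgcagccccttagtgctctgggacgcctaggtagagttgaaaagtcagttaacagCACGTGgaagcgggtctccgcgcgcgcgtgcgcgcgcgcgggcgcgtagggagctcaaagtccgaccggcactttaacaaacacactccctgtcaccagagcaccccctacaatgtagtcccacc
Tex19.1: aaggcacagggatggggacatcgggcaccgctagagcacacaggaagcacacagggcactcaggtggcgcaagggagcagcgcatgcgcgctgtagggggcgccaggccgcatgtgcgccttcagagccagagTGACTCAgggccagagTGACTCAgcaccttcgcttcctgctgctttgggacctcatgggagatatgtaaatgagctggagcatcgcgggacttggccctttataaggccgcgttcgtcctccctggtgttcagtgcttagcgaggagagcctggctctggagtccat

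Both words read the same on either strand. In the Tex19.1 promoter the AP-1 word stood 2 times, starting 117 and 101 bases before the start site. TGANTCA was found in 5 of the 36 member promoters (13.9%) and in 7.0% of 20150 promoters of 16522 protein-coding genes. CACGTG was found in 7 member promoters (19.4%) and in 8.03% of all. Promoters of the same gene were counted separately, even where they overlap, so the 7 include overlapping promoters of Tdrd1. The SP1 word GGGCGG, searched on both strands, was found in 22 (61.1%) and in 47.8% of all. The TEAD word GGAATG was found in 2 member promoters (5.56%) against 13.4% of all, and TATAAA also in 2 (5.56%) against 12.1%. Median G+C content was 60.7% in member promoters and 57.0% in all, and the median ratio of observed to expected CpG was 0.620 and 0.588. A word match is a description and says nothing of factor binding. Genes without a RefSeq promoter included Aldh1l2, Cdh13, Clmp, Dppa4, Fkbp10, Fut10, Igf2bp1, Loxl2, Morc1, Nptx1, Ntn1, Nxf3, P3h4, Scara3, St5, Tbx3, Tgfbr3, Tln2 and Znhit3.

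Together the 48 genes made up 2144, 2457 and 2227 CPM in the 3 PyMT-M libraries, which is 0.214%, 0.246% and 0.223% of all counts. They summed to 55.7, 57.6 and 56.6 CPM in the PyMT-N libraries, and to 11.5, 9.43 and 2.44 CPM in the alone libraries. All 48 had a count in every PyMT-M library. Between 24 and 28 had a count in a PyMT-N library and between 4 and 16 in an alone library.

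The word "only" holds for some of these genes. Over the 3 libraries of a group, 16 members had no count with PyMT-N cells, 28 had none alone, and 12 had none in either group. The other 32 had counts with PyMT-N cells, 24 of them more than 3 counts, and 17 averaged at least 1 CPM there. In the alone group 20 members had a count and 7 had more than 3. A count of 0 over a group allows up to 3 counts, which is 0.259 CPM for the PyMT-N group and 0.399 CPM for the alone group. The PyMT-N mean was above the alone mean for 28 members and below it for 8.

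**Figure D1:**
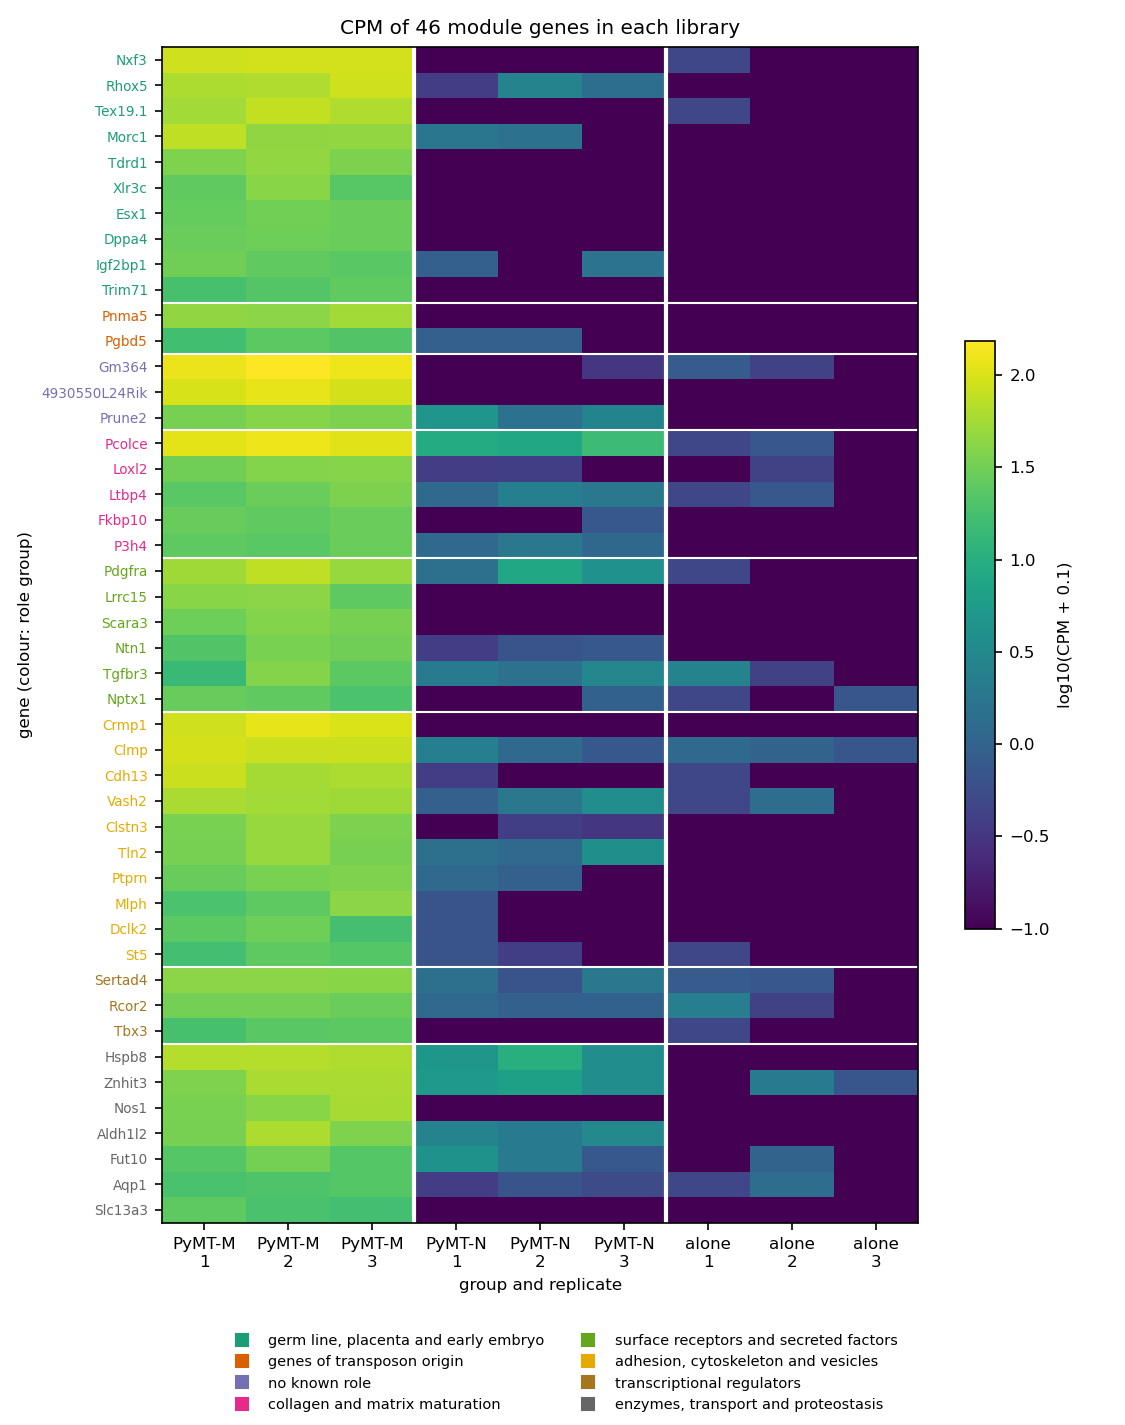
Level of 46 of the 48 module genes (rows, coloured by role group) in 9 libraries (columns, 3 per group), as log10 of CPM plus 0.1. The PyMT-M columns are bright in every row, while 15 rows are at 0 in all PyMT-N columns and 27 in all alone columns.

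For all 48 members the lowest PyMT-M library was above the highest of the other 6. Of 12012 genes tested, 33.9% had every PyMT-M library above every PyMT-N library, and 41.3% had every PyMT-M library above every alone library. Since the rule used these means, nothing is read from the members' count. In 37 members every PyMT-M library reached 20 CPM. A member had between 56 and 661 counts in a single PyMT-M library. The coefficient of variation over the 3 PyMT-M libraries had a median of 17.0% and ran from 1.88% for Nxf3 to 49.5% for Tgfbr3, where counting error by itself would give a median of 8.39%. The highest of the 3 libraries was replicate 2 for 24 members, replicate 3 for 15 and replicate 1 for 9.

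**Figure D2:**
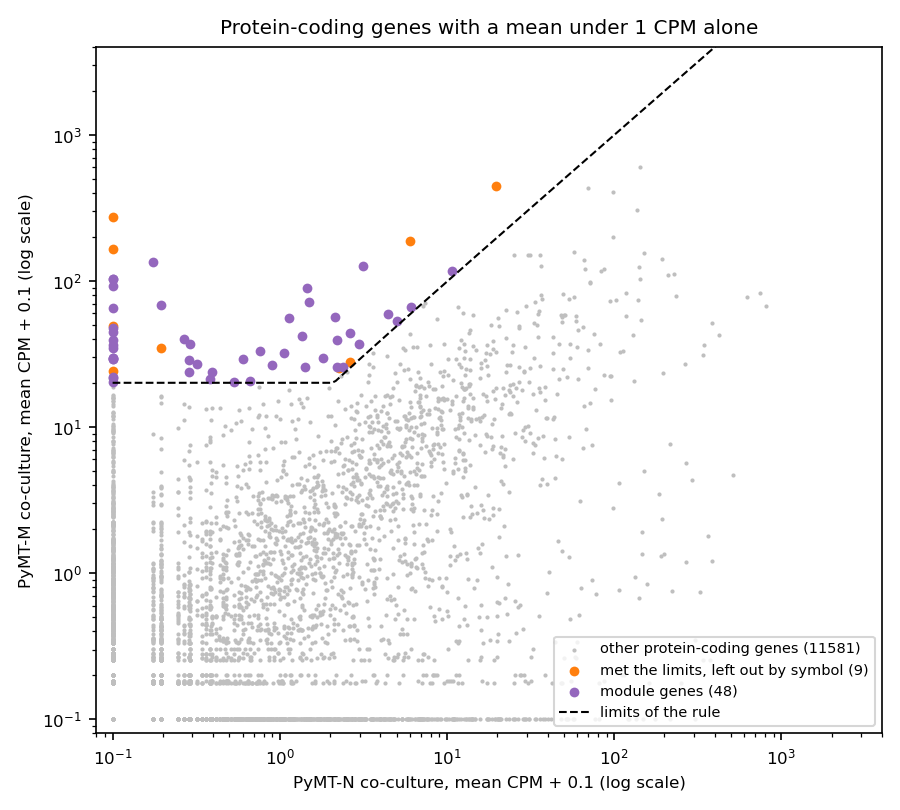
Mean level with PyMT-M cells (vertical) against the mean with PyMT-N cells (horizontal), both as CPM plus 0.1 on log scales, for protein-coding genes averaging under 1 CPM alone. The dashed line marks the 2 limits of the rule, 20 CPM and 10 times PyMT-N, and the module and the 9 genes left out by symbol lie on or above it.

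Genes of the germ line, placenta and early embryo had little signal outside the PyMT-M libraries. The 10 genes (Nxf3, Rhox5, Tex19.1, Morc1, Tdrd1, Xlr3c, Esx1, Dppa4, Igf2bp1 and Trim71) summed to 449, 475 and 457 CPM with PyMT-M cells. They summed to 2.82, 3.99 and 2.87 CPM with PyMT-N cells and to 0.741, 0 and 0 CPM alone. All of that PyMT-N signal lay in Rhox5, Morc1 and Igf2bp1, and the remaining 7 had no count in that group.

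Nxf3 belongs to the messenger RNA export factor family and is known in the mouse from Sertoli cells of the testis. It had 90.2, 91.7 and 93.6 CPM with PyMT-M cells, no count with PyMT-N cells, and 0.371, 0 and 0 CPM alone. Against the floor of 3 counts over the PyMT-N group it was at least 354-fold higher with PyMT-M cells. Its relative Nxf1, which serves messenger RNA in all cells, had 313 CPM with PyMT-M cells, 228 CPM with PyMT-N cells and 340 CPM alone.

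Rhox5 is an X-linked homeobox gene of testis, ovary and placenta. It had 61.4, 64.3 and 88.7 CPM with PyMT-M cells, 0.282, 2.57 and 1.33 CPM with PyMT-N cells, and no count alone. The ratio of pooled PyMT-M to PyMT-N levels was 50.8, with a 95% counting interval of 31.1 to 89.4. The gene belongs to a cluster on chromosome X, and 4 of its 31 other annotated Rhox genes (Rhox1, Rhox2d, Rhox2g and Rhox2h) had more than 3 counts with PyMT-M cells and none in the other 6 libraries. Rhox1 had 12.2, 15.6 and 6.12 CPM in the PyMT-M libraries, the highest of those 4. Rhox2 copies are near identical, so their counts are uncertain.

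Tex19.1, which restrains retrotransposons in germ cells and placenta, had 54.4, 78.0 and 63.9 CPM with PyMT-M cells, no count with PyMT-N cells and 0.371, 0 and 0 CPM alone. It was at least 254-fold higher with PyMT-M cells than with PyMT-N cells. Its paralogue Tex19.2 had 13.5, 9.75 and 6.12 CPM in the PyMT-M libraries and no count in any other library. Morc1, needed to silence transposons in male germ cells, had 75.9, 45 and 45.9 CPM with PyMT-M cells, against 1.69, 1.43 and 0 CPM with PyMT-N cells, and no count alone. Replicate 1 was well above the other PyMT-M libraries for Morc1.

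Tdrd1 acts in the piRNA pathway of male germ cells, Xlr3c belongs to an X-linked family related to a meiotic chromosome protein, Esx1 is a homeobox gene of placenta and testis, and Dppa4 is a marker of pluripotent cells. Together with Trim71, a ubiquitin ligase of early embryos, these 5 had no count in any of the other 6 libraries. Their PyMT-M means ran from 21.6 CPM for Trim71 to 39.7 CPM for Tdrd1. Dppa4 was among the least variable, at 28.5, 30.2 and 28.1 CPM. Xlr3c has near-identical copies, so reads may have been split between them.

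Pnma5 and Pgbd5 derive from mobile elements, a retrotransposon Gag gene and a piggyBac transposase. Pnma5 had 45, 42.5 and 54.4 CPM with PyMT-M cells and no count in either other group, which made it at least 180-fold higher than with PyMT-N cells. Pgbd5 had 16.7, 23.9 and 20.8 CPM with PyMT-M cells, 0.845, 0.855 and 0 CPM with PyMT-N cells and no count alone.

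Gm364 and 4930550L24Rik carry no gene name that states a role, and the second has the RefSeq synonym mage-k1. Gm364 had the highest CPM of the module, 125, 153 and 127 with PyMT-M cells. It had 1 count in all PyMT-N libraries together and 3 counts alone, so the ratio of PyMT-M to PyMT-N levels had a wide 95% counting interval of 282 to 62188 around 1573. 4930550L24Rik had 98.4, 117 and 95.1 CPM with PyMT-M cells and no count elsewhere, which placed it at least 403-fold higher than with PyMT-N cells. Prune2, the other gene placed here, had 34.2, 40.6 and 35.5 CPM with PyMT-M cells, against 4.50, 1.43 and 2.65 CPM with PyMT-N cells, and no count alone.

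Chromosome X held 7 of the 48 members (14.6%): Gm364, 4930550L24Rik, Nxf3, Rhox5, Pnma5, Xlr3c and Esx1. The mirror-image rule for PyMT-N (at least 20 CPM there, 10 times PyMT-M, under 1 CPM alone, with no symbols left out) gave 122 genes, of which 3 (2.46%) were on chromosome X. Of 7524 protein-coding genes with at least 20 CPM in some group, 205 (2.72%) were X-linked. Of all 21995 protein-coding genes, 948 (4.31%) were. None of the 9 genes left out by symbol was X-linked. Several of the 7 belong to gene families clustered on that chromosome, so they are not independent, and the shares are given with no test. The 48 genes lay on 15 chromosomes, with 7 each on chromosomes 5, 11 and X.

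In 3 places a pair of members lay within 500 kb of each other. P3h4 (chr11:100408456-100414836, minus strand) and Fkbp10 (chr11:100415697-100424824, plus strand) are transcribed away from each other from starts 861 bases apart. Dppa4 and Morc1 on chromosome 16 were 137.0 kb apart. Between them lay Dppa2, the partner of Dppa4 in early embryos, with 2.5, 4.18 and 3.67 CPM with PyMT-M cells, 0, 0.855 and 0 CPM with PyMT-N cells, and 1.85, 0.629 and 0 CPM alone. Its lowest PyMT-M library was above its highest alone library. Pnma5 and Xlr3c on chromosome X were 217 kb apart, with 5.63 CPM of Xlr3a and 4.27 CPM of Xlr4c between them in PyMT-M libraries, against 0.221 and 0.190 CPM in PyMT-N libraries. F8a, also between them, averaged 6.09 CPM with PyMT-M cells, 4.21 CPM with PyMT-N cells and 1.87 CPM alone. The other protein-coding genes there averaged at most 1.99 CPM (Xlr4b) with PyMT-M cells, and Xlr5b, Spin2d and Gm14685 had no count in any library.

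**Figure D3:**
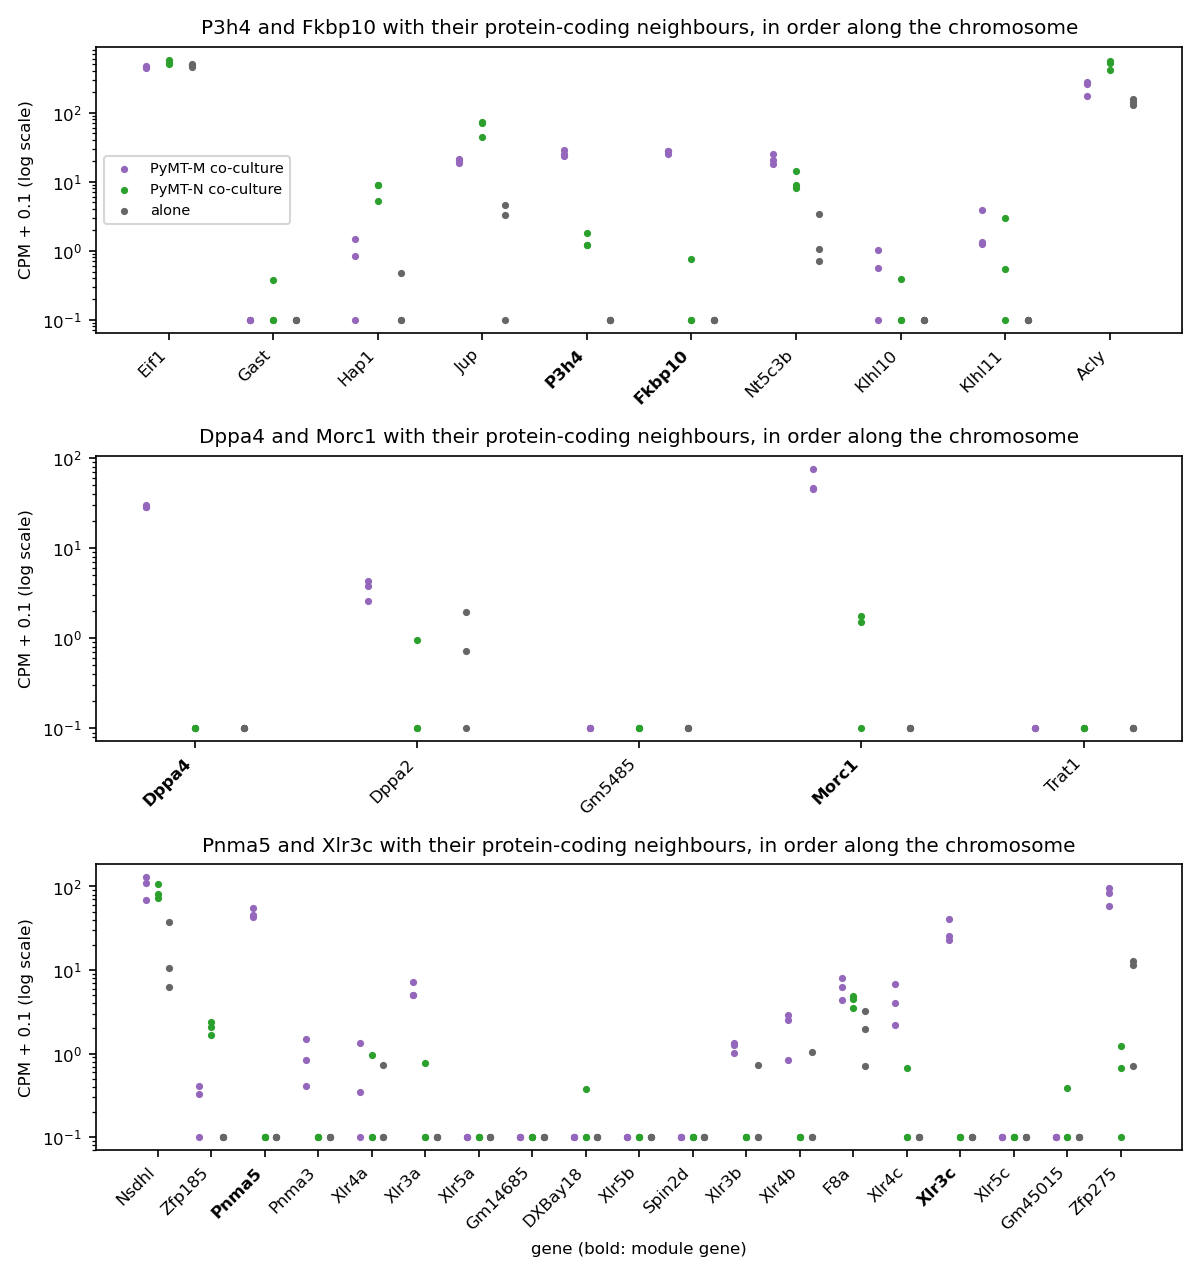
CPM plus 0.1 on a log scale for each library, for the 3 pairs of neighbouring module genes (bold) and the protein-coding genes within 100 kb of them, in order along the chromosome. Other neighbours varied: Jup, next to P3h4, averaged 20.2 CPM with PyMT-M cells and 62.5 CPM with PyMT-N cells, while Zfp275, near Xlr3c, averaged 79.0 CPM with PyMT-M cells, 0.565 CPM with PyMT-N cells and 8.18 CPM alone.

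Collagen and matrix maturation genes were next. These 5 genes (Pcolce, Loxl2, Ltbp4, Fkbp10 and P3h4) summed to 220, 246 and 242 CPM with PyMT-M cells, 11.5, 12.0 and 18.8 CPM with PyMT-N cells, and 0.741, 1.57 and 0 CPM alone. Every one of them had counts with PyMT-N cells. Pcolce, which speeds the removal of the procollagen C-terminal propeptide, had 112, 128 and 109 CPM with PyMT-M cells and the highest PyMT-N level of any member, 9.01, 7.70 and 15.3 CPM. Its ratio of group means was 10.9, close to the limit of 10.

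Loxl2, an oxidase that cross-links collagen, had 31.0, 39.0 and 40.7 CPM with PyMT-M cells, 0.282, 0.285 and 0 CPM with PyMT-N cells, and 0, 0.314 and 0 CPM alone. Ltbp4, which anchors latent TGF-beta to the matrix, had 23.5, 29.7 and 35.5 CPM with PyMT-M cells, against 1.13, 2.28 and 1.77 CPM with PyMT-N cells, and 0.371, 0.629 and 0 CPM alone. The related Ltbp1 and Ltbp3 ran the other way, with means of 9.95 and 11.2 CPM with PyMT-M cells and 29.3 and 43.1 CPM with PyMT-N cells. Among the relatives of Loxl2, Lox averaged 11.7 CPM with PyMT-M cells and 0.643 CPM with PyMT-N cells. Loxl3 averaged 3.65 and 1.23 CPM in the same order, and Loxl4, whose libraries overlapped between the groups, 6.97 and 11.6 CPM. Fkbp10 and P3h4, which act on procollagen in the endoplasmic reticulum, had PyMT-M means of 27.1 and 25.8 CPM. Fkbp10 overlaps Nt5c3b on the opposite strand (21 CPM with PyMT-M cells), and whether counting used strand is not stated in the sources used here.

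Surface receptors and secreted factors included Pdgfra, Lrrc15, Scara3, Ntn1, Tgfbr3 and Nptx1. Pdgfra, a receptor for platelet-derived growth factor and a marker of fibroblasts, had 52.9, 76.4 and 49.9 CPM with PyMT-M cells. It had 1.41, 7.70 and 3.98 CPM with PyMT-N cells, and 0.371, 0 and 0 CPM alone. The ratio to PyMT-N was 14.1 (95% counting interval 10.6 to 19.2). Lrrc15, a membrane protein known from tumour-associated fibroblasts, had 41.5, 42.9 and 24.8 CPM with PyMT-M cells and no count in the other 6 libraries. Tgfbr3, the co-receptor betaglycan, was the most uneven member, at 14, 39.2 and 23.9 CPM with PyMT-M cells, against 1.97, 1.43 and 2.87 CPM with PyMT-N cells, and 2.59, 0.314 and 0 CPM alone. Its lowest PyMT-M library was above the highest of the other 6 libraries.

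Adhesion, cytoskeleton and vesicle genes (Crmp1, Clmp, Cdh13, Vash2, Clstn3, Tln2, Ptprn, Mlph, Dclk2 and St5) summed to 487, 529 and 492 CPM with PyMT-M cells, 7.60, 5.42 and 8.18 CPM with PyMT-N cells, and 2.22, 2.20 and 0.609 CPM alone. Crmp1, a cytosolic protein that relays semaphorin signals in neurons, had 88.9, 117 and 102 CPM with PyMT-M cells and no count in the other groups. It was at least 397-fold higher than with PyMT-N cells. Its relative Dpysl2 had 103 CPM with PyMT-M cells but also 51.2 CPM with PyMT-N cells and 14.9 CPM alone.

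Clmp, an immunoglobulin-type adhesion molecule, had 95.6, 85.7 and 85.0 CPM with PyMT-M cells, 2.25, 1.14 and 0.663 CPM with PyMT-N cells, and 1.11, 0.943 and 0.609 CPM alone. Cdh13 is a cadherin tethered by a lipid anchor, without the cytoplasmic tail of classical cadherins. It had 84.9, 57.6 and 61.8 CPM with PyMT-M cells and 1 count in each of the other groups. Vash2, which trims tyrosine from tubulin, had 60.4, 55.7 and 53.8 CPM with PyMT-M cells, against 0.845, 1.71 and 3.54 CPM with PyMT-N cells, and 0.371, 1.26 and 0 CPM alone. Clstn3, a synaptic adhesion protein, had 35.2, 49.9 and 35.8 CPM with PyMT-M cells and 2 counts with PyMT-N cells. The remaining 5 of these genes had PyMT-M means from 21.3 CPM (St5) to 39.2 CPM (Tln2).

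Transcriptional regulators included Sertad4, Rcor2 and Tbx3. Sertad4, a protein with a SERTA domain, had a steady level of 43.0, 42.3 and 41.0 CPM with PyMT-M cells. Rcor2, a cofactor of the histone demethylase Lsd1, had 33.0, 33.2 and 29.7 CPM with PyMT-M cells, 1.13, 0.855 and 0.884 CPM with PyMT-N cells, and 2.22, 0.314 and 0 CPM alone. Tbx3, a T-box factor of limb and mammary development, had a PyMT-M mean of 21.9 CPM, no count with PyMT-N cells and 1 alone.

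Enzymes, transporters and proteostasis genes (Hspb8, Znhit3, Nos1, Aldh1l2, Fut10, Aqp1 and Slc13a3) summed to 239, 302 and 282 CPM with PyMT-M cells, 16.9, 20.5 and 11.3 CPM with PyMT-N cells, and 0.371, 4.09 and 0.609 CPM alone. Hspb8, a small heat shock protein, had 68.2, 66.9 and 64.2 CPM with PyMT-M cells, 4.79, 9.69 and 3.54 CPM with PyMT-N cells, and no count alone. Znhit3, which helps assemble small nucleolar RNPs, had 37.2, 60.4 and 60.9 CPM with PyMT-M cells, 5.07, 6.27 and 3.54 CPM with PyMT-N cells, and 0, 1.89 and 0.609 CPM alone.

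Nos1, the neuronal nitric oxide synthase, had 34.5, 41.8 and 58.7 CPM with PyMT-M cells and no count in the other groups. The inducible synthase Nos2 showed the opposite order, with 0.999, 0 and 0 CPM with PyMT-M cells, 15.2, 6.84 and 13.0 CPM with PyMT-N cells and no count alone. Aldh1l2, a folate enzyme of mitochondria, had 33.7, 61.5 and 36.7 CPM with PyMT-M cells, 2.53, 2.00 and 3.09 CPM with PyMT-N cells and no count alone. It overlaps D10Wsu102e on the opposite strand, so some of its counts may belong to that gene.

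Per kilobase of annotated exon (RPKM), the order of the module changed. Rhox5 led with 94.8 ± 19.9 RPKM in the PyMT-M libraries (SD, n = 3), ahead of Gm364 with 62.6 ± 7.21 and 4930550L24Rik with 61.5 ± 7.09 RPKM. Those 2 did not differ beyond their spread. Among the next genes, Tex19.1 had 35 ± 6.33, Hspb8 34.1 ± 1.03, Pcolce 30.5 ± 2.75 and Nxf3 30.1 ± 0.566 RPKM, and the spreads of neighbours in that order overlap. The lowest was Prune2 at 1.81 ± 0.167 RPKM. Median exon length was 4988 bases for the members, close to the 4946 bases of protein-coding genes with at least 20 CPM in some group.

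**Figure D4:**
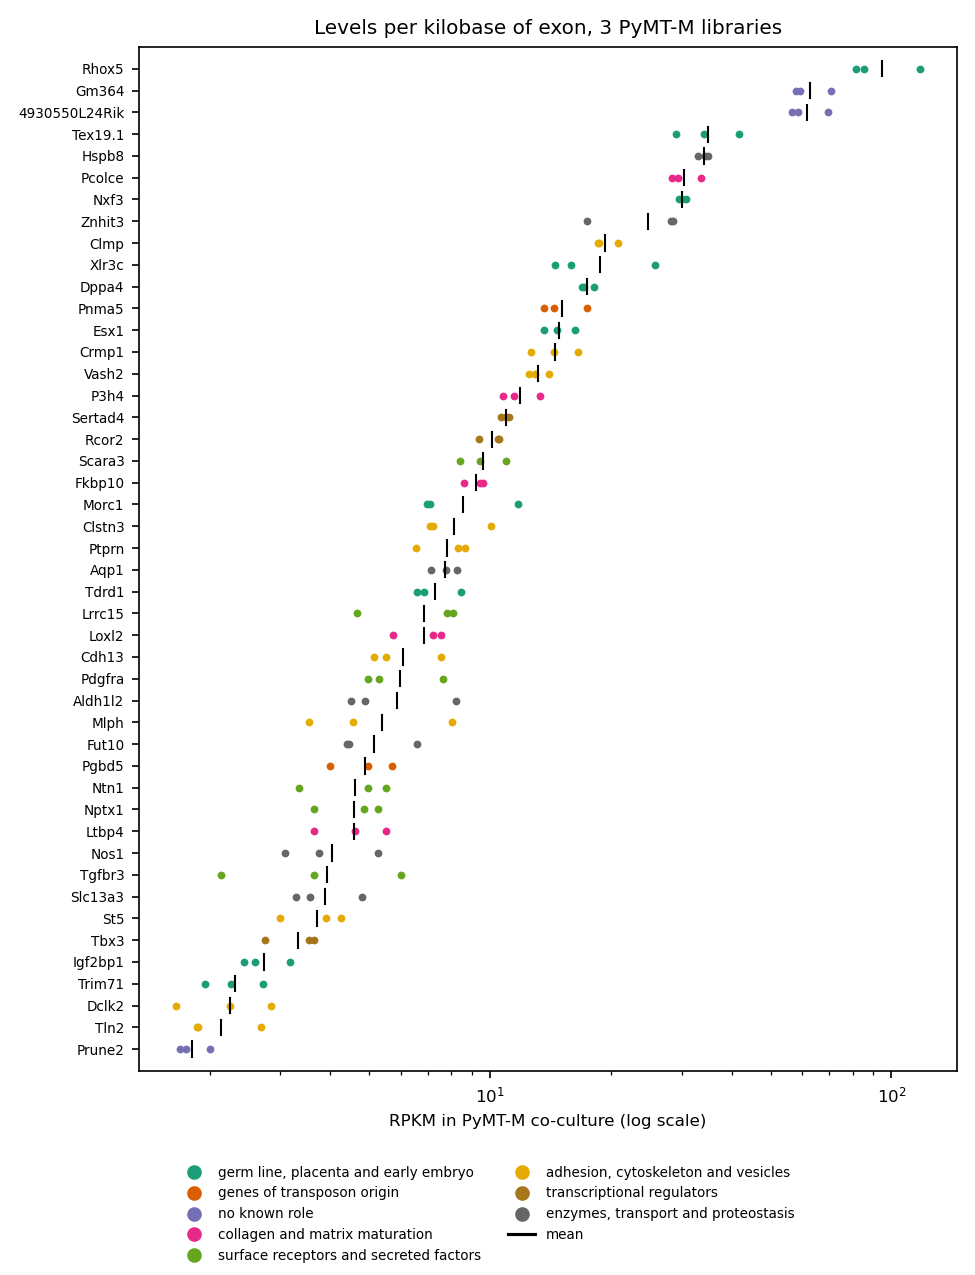
Level of 46 of the 48 members in the 3 PyMT-M libraries (points) with the mean (black bar), in RPKM on a log scale, coloured by role group. The first 3 rows are Rhox5, Gm364 and 4930550L24Rik. Germ line genes are spread from the top to near the bottom, where Igf2bp1 averaged 2.73 RPKM and Trim71 2.31 RPKM.

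Some genes lay just past a limit. Slc13a3, Aqp1, Pgbd5 and St5 were inside at 20.2, 20.3, 20.5 and 21.3 CPM with PyMT-M cells, while Rab3il1, Hoxd8, Gm9732 and Ccdc36 fell outside at 18.8, 18.6, 17.9 and 16.6 CPM. For the ratio of PyMT-M to PyMT-N means, Znhit3, Pcolce, Hspb8 and Fut10 were inside at 10.7, 10.9, 11.1 and 11.2, and Pax9, Nptxr, Six4 and Arhgap29 were outside at 9.79, 9.66, 9.49 and 9.17. The alone limit kept Tgfbr3, Clmp, Rcor2 and Znhit3 at 0.969, 0.888, 0.846 and 0.832 CPM. It left out Yap1, a Hippo pathway coactivator, at 1.02 CPM alone, although Yap1 averaged 1428 CPM with PyMT-M cells and 74.1 CPM with PyMT-N cells. Bahcc1, B4galt2 and Gab1 were outside at 1.58, 2.12 and 2.26 CPM alone.

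Gene lists give the surroundings of the module and were tested with edgeR's quasi-likelihood method over all 12012 genes that passed a low-count filter, at a Benjamini-Hochberg adjusted p under 0.05. With PyMT-M cells, 15.5% of genes were called higher and 19.1% lower than with PyMT-N cells (34.6% in either direction), and 28.2% higher and 27.9% lower than alone (56.1%). Scaling by library totals in place of trimmed means moved the median of all genes from 0.015 to 0.228 on the log2 scale over PyMT-N and from -0.031 to 0.437 over alone. With it, 2703 genes were higher and 1834 lower than with PyMT-N cells (1865 and 2297 with trimmed means), and 4571 higher and 1913 lower than alone (3382 and 3353). Both comparisons share the PyMT-M libraries, and all 48 members passed the filter through that group.

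Of 30 mesenchymal markers 22 were tested. Of the 22, 4 passed the filter through the PyMT-M libraries alone and 2 through the PyMT-N libraries alone, so part of the calls was set by the filter. Over PyMT-N, 12 were higher and 5 lower, with a median log2 fold change of 1.98 against 0.015 for all genes. Of the 12, 4 (Pdgfra, Col3a1, Col5a1 and Col6a1) met the limits of the module, which leaves 8. The median includes those 4. The intermediate filament gene Vim had 3364, 3552 and 2647 CPM with PyMT-M cells, 488, 533 and 480 CPM with PyMT-N cells, and 1186, 1071 and 1192 CPM alone. Its log2 fold change over PyMT-N was 2.46 (SE 0.152, edgeR adjusted p = 1.08e-08), and the groups did not overlap. Fstl1, a secreted follistatin-like protein, had 110, 101 and 129 CPM with PyMT-M cells and 1.69, 1.71 and 0 CPM with PyMT-N cells (log2 fold change 6.51, SE 0.477, edgeR adjusted p = 2.01e-08). Col1a1, the main fibrillar collagen chain, had 49.7, 69.4 and 36.1 CPM with PyMT-M cells, 1.13, 0.570 and 0.884 CPM with PyMT-N cells, and 10.4, 4.40 and 0.609 CPM alone. Cald1, an actin-binding protein, ran the other way, with 162, 172 and 169 CPM with PyMT-M cells and 393, 427 and 435 CPM with PyMT-N cells (log2 fold change -1.53, SE 0.164, edgeR adjusted p = 2.39e-06). The list did not move as a whole: Cdh2, Snai2, Thy1, Postn, Dcn and Lum had no count in any PyMT-M library. Over alone, 14 of the 22 were higher (10 without the same 4 genes) and 3 lower, where 28.2% of all genes were higher and 27.9% lower.

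Pdgfrb, the partner receptor of Pdgfra, had 33.2, 35.1 and 21.4 CPM with PyMT-M cells, against 0.563, 0 and 0 CPM with PyMT-N cells, and 0, 0 and 12.2 CPM alone. Its log2 fold change over PyMT-N was 6.96 (SE 1.03, edgeR adjusted p = 5.31e-05). Of 9 tested PDGF and FGF genes, Pdgfrb was the one higher over PyMT-N besides the member Pdgfra, and 4 were lower. Of the 9, 4 passed the filter through the PyMT-N libraries alone, so nothing is read from the share called lower. The ligand gene Pdgfb had 0, 2.32 and 0.612 CPM with PyMT-M cells and 41.7, 77.8 and 67.0 CPM with PyMT-N cells.

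All 26 tested epithelial markers, 14 of which passed the filter through the PyMT-N libraries alone, were lower with PyMT-M cells than with PyMT-N cells, also with the other scalings, and the median log2 fold change was -6.00 with absent genes set at the floor of 3 counts. Krt18, a keratin of simple epithelia, had 0, 0.464 and 0 CPM with PyMT-M cells and 304, 378 and 331 CPM with PyMT-N cells. Cdh1, the epithelial cadherin, had 0.999, 0.696 and 0.306 CPM with PyMT-M cells, 180, 289 and 227 CPM with PyMT-N cells, and 7.41, 13.2 and 3.66 CPM alone. Of 9 tested cadherins and protocadherins, 8 were lower over PyMT-N, and the remaining one is the member Cdh13. Of the 9, 4 passed the filter through the PyMT-N libraries alone and 1 through the PyMT-M libraries alone, so nothing is read from these counts.

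Of 39 Hox genes, which set position along the body axis and limb, 5 were tested. Over PyMT-N, 4 were higher and 1 lower. Hoxd8, Hoxd9, Hoxd10 and Hoxc10 were higher over PyMT-N and had no count in any of the other 6 libraries. Hoxd8 had 18.7, 23.7 and 13.5 CPM with PyMT-M cells, at least 63.5-fold higher than with PyMT-N cells. Hoxd9 had 14.5, 20.4 and 10.4 CPM with PyMT-M cells, and Hoxc10 had 8.24, 12.5 and 7.34 CPM. These 4 passed the low-count filter through the PyMT-M libraries alone, and the 1 called lower through the PyMT-N libraries alone, so nothing is read from their shares.

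Of 18 tested transcription factors of mesoderm and limb, the list of Tbx3, 8 were higher over PyMT-N, Tbx3 among them, and 5 lower. Of the 18, 5 passed the filter through the PyMT-M libraries alone and 3 through the PyMT-N libraries alone. Sox5, a factor of cartilage, had 15.7, 14.9 and 18.4 CPM with PyMT-M cells and no count in the other 6 libraries. Six4, a homeobox factor of muscle precursors, had 77.4, 71.0 and 52.0 CPM with PyMT-M cells and 4.22, 12.3 and 4.64 CPM with PyMT-N cells. Hmga2, an embryonic chromatin protein, was lower with PyMT-M cells, at 80.9, 98.9 and 53.8 CPM against 474, 679 and 709 CPM with PyMT-N cells. Over alone, 14 of the 18 were higher (13 without Tbx3) and 1 lower, where 28.2% of all genes were higher and 27.9% lower. Part of the calls was set by the filter, so nothing is read from these counts. The 55 genes of the whole list summed to 465 to 560 CPM with PyMT-M cells, 702 to 985 CPM with PyMT-N cells and 87.1 to 122 CPM alone.

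Of 30 tested matrix glycoproteins and proteoglycans, 9 were higher over PyMT-N (8 without the member Loxl2) and 14 lower, and over alone 18 were higher (17 without Loxl2) and 3 lower. Tnc, a matrix protein of wounds and tumours, had 4.0, 3.48 and 6.42 CPM with PyMT-M cells and 436, 539 and 563 CPM with PyMT-N cells. Thbs3 was among the higher genes, with 15.7, 13.5 and 11 CPM with PyMT-M cells and 0.282, 0.285 and 1.11 CPM with PyMT-N cells. Of the 30, 4 passed the filter through the PyMT-M libraries alone and 4 through the PyMT-N libraries alone. Axon guidance genes, the list of Ntn1, had 4 of 23 higher over PyMT-N (3 without Ntn1) and 13 lower. Of the 23, 2 passed through the PyMT-M libraries alone and 9 through the PyMT-N libraries alone, so nothing is read from these counts. The BMP and TGF-beta list had 5 of 19 higher (3 without the members Ltbp4 and Tgfbr3) and 10 lower. Of the 19, 2 passed through the PyMT-M libraries alone and 3 through the PyMT-N libraries alone, so nothing is read from these counts either. Cell cycle genes were higher for 12 of 30 over PyMT-N (18 with library totals), with 1 lower, and for 28 of 30 over alone. Beside all these lists, 15.5% of all genes were higher and 19.1% lower over PyMT-N, with trimmed means. Over alone the shares were 28.2% and 27.9%.

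**Figure D5:**
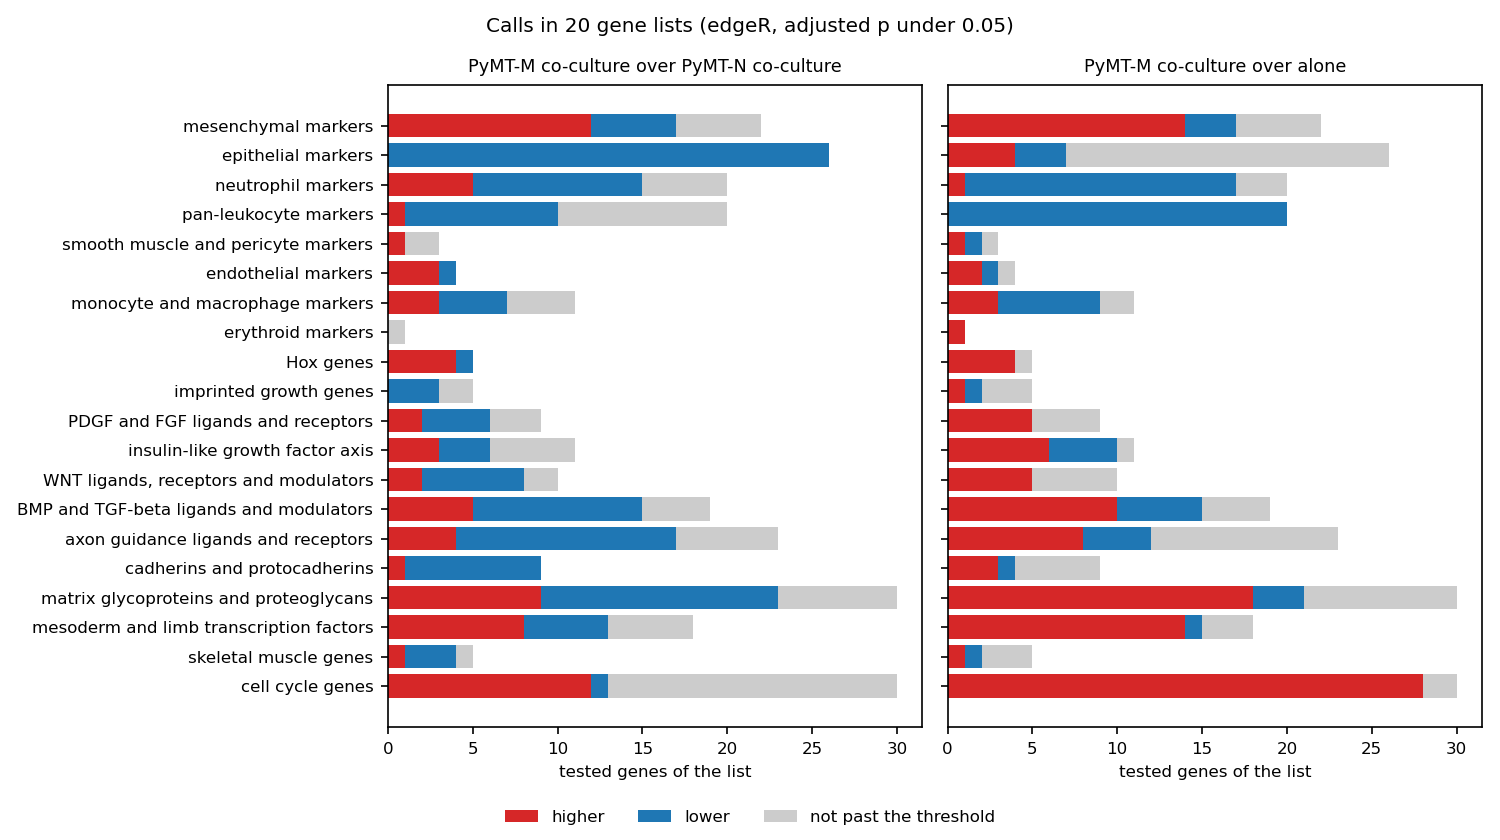
Number of tested genes of 20 lists called higher (red), lower (blue) or not past the threshold (grey) with PyMT-M cells over PyMT-N (left) and over alone (right). Epithelial markers are lower throughout on the left. Mesenchymal markers, mesoderm factors and cell cycle genes have more genes higher than lower in both panels. So do Hox genes and endothelial markers, but 4 of 5 and 2 of 4 tested passed the filter through the PyMT-M libraries alone. Nothing is read from those 2 lists. Of all tested genes, 15.5% were higher on the left and 28.2% on the right.

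Markers of other cells differed between the groups as well. The summed level of 30 mesenchymal markers ran from 4495 to 5457 CPM in PyMT-M libraries, 2097 to 2399 CPM in PyMT-N libraries and 1422 to 1582 CPM in alone libraries, with Vim at 2647 to 3552 CPM of it in the PyMT-M libraries. Without Vim, the sum was 1728 to 1905 CPM in PyMT-M libraries, 1609 to 1919 CPM in PyMT-N libraries and 351 to 390.0 CPM in alone libraries, so the PyMT-M and PyMT-N libraries then overlapped. Both sums hold Pdgfra, Col3a1, Col5a1 and Col6a1, which met the module's limits. Those 4 averaged 59.7, 273, 189 and 166 CPM with PyMT-M cells and 4.36, 0, 5.92 and 0 CPM with PyMT-N cells. Their levels were set by the rule, so nothing is read from the sums or their overlap. The 30 epithelial markers summed to 339 to 441, 3345 to 4432 and 423 to 679 CPM in the same order of groups. They were highest in the PyMT-N libraries, where the module summed to 55.7 to 57.6 CPM. Neutrophil markers (20 genes) summed to 21987 to 26952 CPM with PyMT-M cells, 22241 to 26504 CPM with PyMT-N cells and 30941 to 43629 CPM alone, so the labelled cell type was present in every library. Library totals were 3269332 to 4307585 counts with PyMT-M cells, 3507969 to 4524563 with PyMT-N cells and 1641049 to 3180382 alone, and alone replicate 3 had the fewest genes with a count, 11814. The mitochondrial ribosomal RNA mt-Rnr2 took 7.24%, 6.12% and 11.1% of the counts with PyMT-M cells, 4.0%, 2.65% and 2.70% with PyMT-N cells, and 7.39%, 5.92% and 12.7% alone. The PyMT-M and PyMT-N libraries did not overlap in it, and its part in the results was not tested. The part of cells other than neutrophils, and of free RNA from them, in the 48 transcripts was not tested. In bulk libraries fewer cells of a type and less RNA per cell cannot be told apart. Sorting of the alone group is not stated in the labels, so sorting and co-culture cannot be told apart in any difference from it.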

How the data were processed

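Whole-number read counts of each Ensembl gene were deposited, without normalisation. The submitters' processing notes name STAR and the builds GRCm38 and mm10. How reads were assigned to genes, and whether strand was used, is not stated in the sources used here, and near-identical or overlapping genes may share counts. RNA was turned into libraries from 150 pg, per the labels' protocols. Library totals ran from 1641049 to 4524563 counts, so 1 CPM stood for 1.64 to 4.52 counts.

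CPM by library total, group means, ratios of pooled counts with exact 95% intervals and RPKM were computed with Python 3.11.15 (pandas 2.3.3, scipy 1.17.1). Intervals and floors cover counting error only. Biotypes, coordinates and exon lengths came from GENCODE M21 (GRCm38), which matched 54495 of 54532 identifiers, and promoters from RefSeq. Across genes, edgeR 4.0.16 in R 4.3.3 fitted all 9 libraries with a mean per group (filterByExpr with a count minimum of 10 and a total minimum of 15, trimmed mean of M values, robust quasi-likelihood test, Benjamini-Hochberg adjustment). SE is the fold change over the square root of F. The code was tested on simulated data. Alternatives were DESeq2 1.42.0, other scalings, filters and limits, a replicate block, and leaving out each library.

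The members, role groups and 20 lists were chosen with earlier results of these data known. Values are given for the 20 members of highest PyMT-M mean CPM, the highest 3 of each role group and the 4 genes on either side of each limit. From a list, at most 3 called genes (lowest p, commoner direction) and 1 of the opposite direction are given with values, leaving out members. Other germ line members, family relatives, neighbours, promoters, Pdgfrb and Cdh1 beyond that rule were picked after their values were seen. Some genes that met the rule are not reported here.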

Additional observations from a re-analysis of the deposited data

How the results depend on the processing

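With trimmed mean scaling in place of library totals 34 of the 48 genes met the limits, and 37 did with relative log expression factors. Summed CPM of the module fell to 1925 and 1999, against 2276 with library totals. A PyMT-M limit of 10 CPM gave 97 genes and one of 50 CPM gave 15. The other limits gave 37 to 66 genes, and leaving out a library gave 43 to 51, with sums of 2186 to 2342 CPM. Under every left-out library 36 genes stayed members. The 12 that were lost in some were Aqp1, Clmp, Fut10, Hspb8, Pcolce, Pgbd5, Rcor2, Slc13a3, St5, Tgfbr3, Trim71 and Znhit3. Genes called over PyMT-N numbered 4162 (3164 to 5274 under other settings, 3235 to 5630 without a library), and over alone 6735 (5324 to 7264, and 5875 to 7505). Mesenchymal markers called higher over PyMT-N stayed at 10 to 12 and epithelial markers called lower at 20 to 27. With the replicate number as a block, counts were 3967, 6517, 12 and 26. Deviations from the group mean had correlations of -0.0781 to 0.0285 between same-numbered libraries and -0.0618 to 0.0682 between the others. With 3 libraries per group, these cannot decide whether the numbers pair the libraries. Depth limits the low side: a member at 0 alone may have had up to 0.399 CPM.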
